A study of Homo sapiens with 14 samples.

Results

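MALAT1, NEAT1 and KCNQ1OT1 are long RNAs that code for no protein and stay in the nucleus. They are 3 of the 58037 genes counted in a study of the human acute myeloid leukaemia line OCIAML2. The genes were selected on their own RiboLace and total RNA values in earlier results of these counts, across both genotypes and HHT. Their levels in those contrasts are therefore given as descriptions without a p-value. The difference between the 2 mutant lines, which the choice did not name, is tested. Those tests use total RNA libraries whose values entered the choice, so their p-values are not independent of it. All 3 passed the filter on low counts in each of the 8 comparisons.

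The mutant cells carry 1 R174* allele of RUNX1, a transcription factor of blood cells, beside 1 wild-type allele (Runx1R174*/wt), and exist as 2 lines, F3 and G7. The wild-type cells (Runx1wt/wt) are the parent line alone. RiboLace, a pull-down of translating ribosomes with their RNA, was sequenced from 2 mutant libraries, both of F3, and 2 wild-type libraries. The labels of the RiboLace libraries name no treatment, time or dose. Total RNA was sequenced from 4 mutant libraries exposed to 100 nM HHT for 8 h, 4 mutant control libraries and 2 untreated wild-type libraries, with F3 and G7 each giving 2 of the 4 in both mutant groups. HHT, or homoharringtonine, is a plant alkaloid that stops ribosomes early in elongation. The controls are labelled as 8 h but carry a 0 h name in their description, so their time is uncertain. The labels do not say that replicates came from separate cultures, so p-values measure only the spread between these libraries. Genotype cannot be told apart from the derivation of the lines, and the RiboLace contrast of genotypes rests on 1 mutant line.

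MALAT1 collects in nuclear speckles, bodies rich in splicing factors, and NEAT1 is the scaffold on which paraspeckles are built. Neither MALAT1 nor the long form of NEAT1 ends in an ordinary poly(A) tail: RNase P cuts both, releasing a tRNA-like RNA, and the end left behind folds into a triple helix of U-rich and A-rich stretches that protects it. KCNQ1OT1 is read from the paternal allele antisense to the potassium channel gene KCNQ1, and silences neighbouring imprinted genes on the same chromosome.

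The 3′ ends are shown because those of MALAT1 and NEAT1 share stretches that the KCNQ1OT1 end lacks. They are given 5′ to 3′ from GENCODE 29 transcripts on GRCh38. Capitals mark a run of 16 bases that MALAT1 and NEAT1 share, and the last 20 bases. The tRNA-like RNA is placed by the RefSeq annotation (GRCh38.p14) and printed without capitals.
MALAT1, end left by the cut, chr11:65506017-65506116, + strand: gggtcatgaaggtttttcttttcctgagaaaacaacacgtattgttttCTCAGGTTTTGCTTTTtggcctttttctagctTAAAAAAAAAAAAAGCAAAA
NEAT1, end of the long transcript, chr11:65445441-65445540, + strand: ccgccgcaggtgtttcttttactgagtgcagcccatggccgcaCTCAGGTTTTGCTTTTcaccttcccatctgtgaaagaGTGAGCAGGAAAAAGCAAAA
KCNQ1OT1, end of the transcript, chr11:2608328-2608427, - strand: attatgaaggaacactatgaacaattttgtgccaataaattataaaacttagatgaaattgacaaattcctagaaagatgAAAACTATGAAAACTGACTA
MASCRNA, the tRNA-like RNA cut from MALAT1, chr11:65506117-65506174, + strand: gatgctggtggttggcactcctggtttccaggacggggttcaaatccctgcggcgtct

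The shared run was in 2 of 203677 GENCODE transcripts of at least 100 bases, 1 of MALAT1 and 1 of NEAT1. It lies 36 bases before the MALAT1 end and 41 bases before the NEAT1 end, and the last 11 bases of both are the same. The longest run that the MALAT1 and KCNQ1OT1 ends share is 7 bases. Of the last 20 bases of MALAT1, 17 are A, which 0.611% of transcripts match or exceed. The NEAT1 and KCNQ1OT1 ends hold 11 each, as many as 9.32% of transcripts do. None of the 3 has AATAAA, the usual poly(A) signal, in its last 50 bases on the printed strand, whereas 25% of transcripts have it. The printed KCNQ1OT1 sequence does hold AATAAA, just before those 50 bases, and the printed MALAT1 and NEAT1 sequences do not. A match of letters is a description of these windows and not of the RNA in these cells.

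MALAT1 (ENSG00000251562.7) lies at chr11:65497688-65506516 on the plus strand, with 8829 exonic bases over 17 transcripts. NEAT1 (ENSG00000245532.6) lies at chr11:65422774-65445540 on the same strand, with 22767 exonic bases over 8 transcripts that include the short and long forms, which gene counts do not separate. KCNQ1OT1 (ENSG00000269821.1) lies at chr11:2608328-2699994 on the minus strand as a single exon of 91667 bases, inside KCNQ1. KCNQ1 shares 121 exonic bases with it, but had only 0 to 2 reads in RiboLace and 1 to 18 in total RNA. No source used here says whether counting used strand, and antisense RNA at these loci cannot be told apart from the 3 genes.

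RiboLace libraries held 1192811 and 465052 counted reads in the mutant and 2034796 and 1054581 in wild type. Total RNA libraries held far more, 19250789 to 21925693. Levels below are CPM, the share of a library's reads, scaled by the trimmed mean of M values (TMM). All 12 myeloid markers examined had 10 or more reads in every total RNA library, while no library had so many for any of 8 erythroid, more than 4 of 8 lymphoid or more than 2 of 10 adherent-cell markers. RiboLace libraries also differed in make-up. Genes annotated as small nuclear RNA (snRNA) took 24320 and 29170 unscaled CPM in mutant RiboLace and 34680 and 22800 in wild-type RiboLace. In total RNA they took 7.88 to 11.5. The single gene MIR6087 took 89960 and 46380 unscaled CPM in mutant RiboLace and 114200 and 78400 in wild-type RiboLace. It had at most 0.104 in total RNA. The preparation of the 2 kinds of library cannot be told apart from the ribosome pull-down. In bulk RNA, fewer cells holding an RNA and less RNA per cell cannot be told apart either.

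In RiboLace, MALAT1 and NEAT1 were far higher in the mutant than in wild type, while KCNQ1OT1 was close in both. MALAT1 had 2753 and 4961 CPM in the 2 mutant libraries, against 448.5 and 543.9 CPM in the 2 wild-type libraries, from 3338 and 2526 reads and from 797 and 590 reads. The lowest mutant library was well above the highest wild-type one. MALAT1 ranked 22 and 11 among all genes in mutant RiboLace, against 290 and 180 in wild-type RiboLace.

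NEAT1 had 77.5 and 129.6 CPM in mutant RiboLace (94 and 66 reads), against 27.0 and 37.8 CPM in wild-type RiboLace (48 and 41 reads). Both mutant libraries again lay above both wild-type ones, although fewer reads stand behind them. KCNQ1OT1 had 18.1 and 13.8 CPM in mutant RiboLace (22 and 7 reads), against 12.4 and 12.9 CPM in wild-type RiboLace (22 and 14 reads). These groups did not overlap either, but the 7 reads alone have an exact 95% Poisson interval of 2.81 to 14.4 reads, which covers counting error only.

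**Figure D1:**
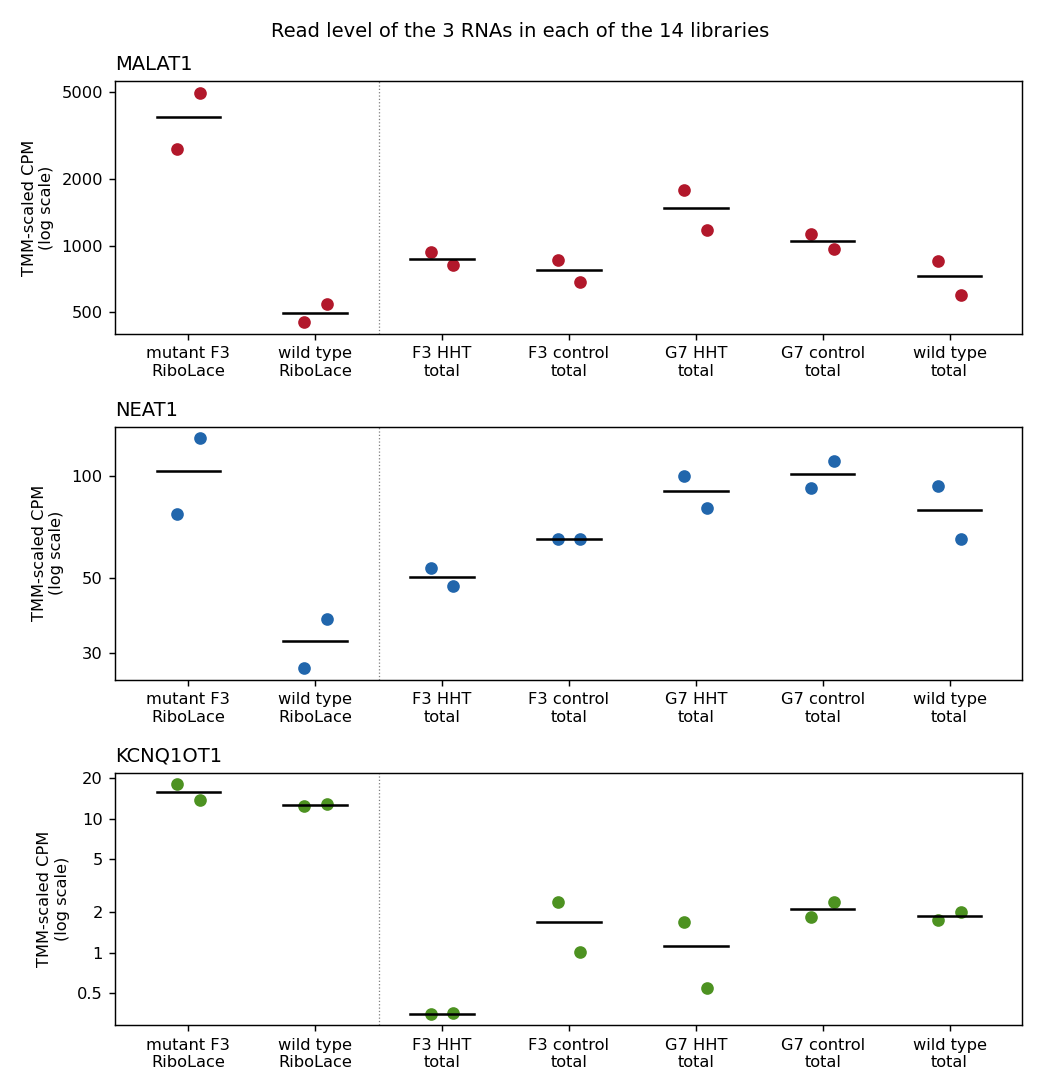
Level of each RNA in the 14 libraries, as CPM on a log axis, TMM-scaled separately for RiboLace and total RNA. Points are libraries and bars are means of 2. The mutant RiboLace points of MALAT1 (2753 and 4961) and NEAT1 (77.5 and 129.6) lie above both wild-type RiboLace points, and KCNQ1OT1 is higher in every RiboLace library than in any total RNA library.

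The log2 fold change of mutant over wild-type RiboLace was 3.05 ± 0.40 (SE, n = 2 each) for MALAT1, 1.75 ± 0.32 for NEAT1 and 0.48 ± 0.46 for KCNQ1OT1. Of 9805 genes tested, 11 had a larger value than MALAT1, 133 than NEAT1 and 2231 than KCNQ1OT1. The edgeR quasi-likelihood test called 11.8% of these genes at an adjusted p under 0.05. Leaving out 1 library at a time kept the log2 value of MALAT1 between 2.53 and 3.43 and that of NEAT1 between 1.34 and 2.14.

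Other noncoding classes, except snRNA genes, were also shifted upward in mutant RiboLace by their medians. Of 166 other long noncoding genes tested, 21 rose and 1 fell, with a median log2 fold change of 0.54. The 13.3% called was near the 11.8% of all 9805 genes. Of 106 snoRNA and scaRNA genes, which guide RNA modification in the nucleolus and Cajal bodies, 47 rose and 4 fell, with a median of 1.01. Genes annotated misc_RNA had 64 up and 17 down of 155, with a median of 0.95. The 90 snRNA genes split 16 up and 13 down (median -0.03), and 8852 nuclear protein-coding genes split 439 up and 484 down (median -0.03). The shares called were 48.1% of snoRNA and scaRNA, 52.3% of misc_RNA, 32.2% of snRNA and 10.4% of protein-coding genes. How many genes met the low-count filter through 1 genotype alone was not counted. Summed snoRNA and scaRNA reads came to 18290 and 22270 unscaled CPM in mutant RiboLace, against 8557 and 9127 in wild-type RiboLace. The part of this shift in the values of MALAT1 and NEAT1 was not tested. Scaled by protein-coding totals alone, a choice made after the data were seen, MALAT1 was at 3.12 and NEAT1 at 1.81.

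**Figure D2:**
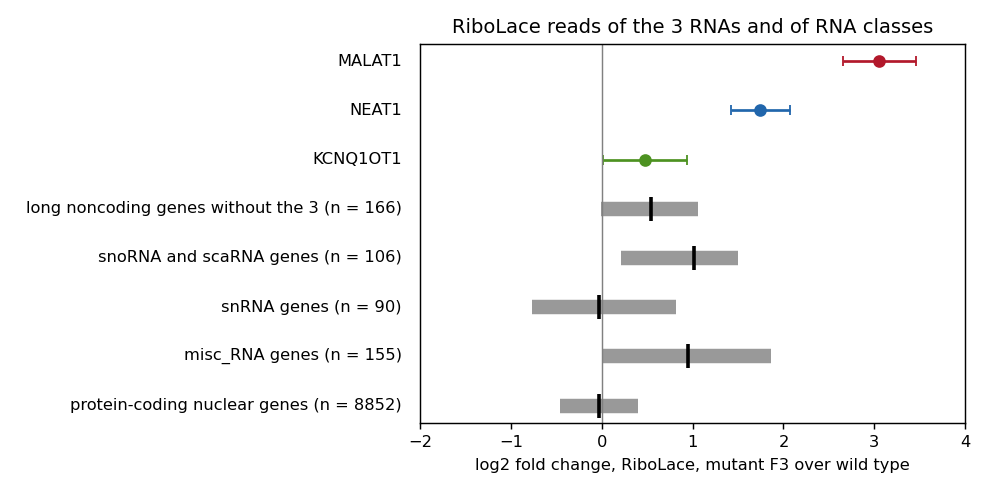
Log2 fold change of mutant F3 over wild type in RiboLace. Points with bars are the 3 RNAs ± SE, grey bars span the middle 50% of genes of a class and black ticks are class medians. MALAT1 (3.05) and NEAT1 (1.75) lie above the medians of all 5 classes, which run from -0.03 to 1.01. NEAT1 lies within the middle 50% of misc_RNA genes (0.009 to 1.86).

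A list of 20 other nuclear noncoding RNAs had 3 members with enough RiboLace reads for the test. Of these 2 rose, in a comparison where 11.8% of all genes were called. SNHG14, the host transcript of imprinted snoRNA clusters, had 63.5 and 92.3 CPM in mutant RiboLace, against 25.9 and 25.8 CPM in wild-type RiboLace (log2 fold change 1.65 ± 0.32, edgeR adjusted p = 0.00119). TUG1, which is found in both nucleus and cytoplasm, had 73.4 and 82.5 CPM against 41.1 and 36.0 CPM (1.09 ± 0.30, adjusted p = 0.0155). PVT1, a neighbour of MYC, had 18.1 and 9.82 CPM against 6.19 and 5.53 CPM and did not pass (1.43 ± 0.54, adjusted p = 0.0791). It met the low-count filter through its mutant libraries, so its upward value was partly built in. With DESeq2, or without wild-type replicate 1 or either mutant library, 1 of the 3 was called.

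Among 17 tested long noncoding RNAs listed as cytoplasmic, 2 rose and 1 fell, where 11.8% of all genes were called. The label is that of the list, and where these RNAs lie in OCIAML2 cells was not measured. MIR17HG, the host of a microRNA cluster, was at 1.5 ± 0.40 (edgeR adjusted p = 0.0144) and OIP5-AS1 at 0.96 ± 0.27 (adjusted p = 0.0202). SNHG1, a spliced snoRNA host, fell (-1.01 ± 0.27, adjusted p = 0.0138). The list median was 0.0015. Of 34 paraspeckle protein genes, 1 fell (HNRNPF, -0.89 ± 0.27, adjusted p = 0.0287), and of 34 nuclear speckle protein genes, 1 rose (DDX39B, an RNA helicase of mRNA export, 1.57 ± 0.34, adjusted p = 0.00322). Both lists are messenger RNAs, with medians of 0.06 and -0.07. Of 21 genes for MALAT1 end processing and m6A, the RNase P subunit genes RPP21 (1.47 ± 0.46, edgeR adjusted p = 0.0353) and RPP14 (1.94 ± 0.65, adjusted p = 0.0471) rose. Neither was called with DESeq2. RPP14 was low, at a mean log2 CPM of 3.09. It probably met the low-count filter through its mutant libraries alone, so its rise was partly built in.

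None of the 8 listed genes around NEAT1 and MALAT1 at 11q13 with enough reads was called by edgeR. Over all 9805 genes tested 11.8% were called, so in lists this small no call is close to that share. FRMD8, which starts at -111.1 kb from the MALAT1 start, had a log2 fold change of 0.60 ± 0.33 and SSSCA1, at 72.7 kb, -0.75 ± 0.33, the extremes of the 8. None of the 6 tested genes listed at 11p15, the imprinted region that holds KCNQ1OT1, was called either. At an unadjusted p under 0.05 there was 1 gene lower at 11q13 and 2 lower at 11p15, and DESeq2 called 0 in both lists.

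**Figure D3:**
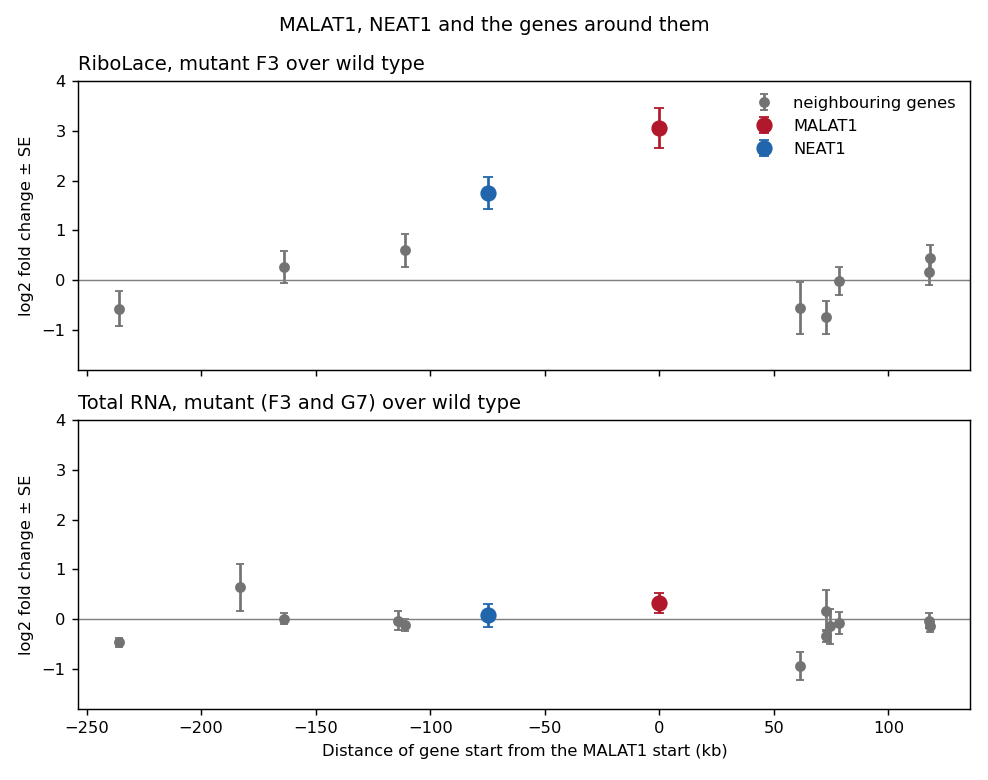
Log2 fold change ± SE of MALAT1, NEAT1 and neighbouring genes by distance of the gene start from the MALAT1 start in kb; RiboLace of mutant F3 over wild type (top) and total RNA of both mutant lines over wild type (bottom). In RiboLace the 8 listed neighbours lie between -0.75 and 0.60, below NEAT1 (1.75) and MALAT1 (3.05).

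In total RNA the untreated mutant did not stand apart from wild type in this way. MALAT1 had 864.9 and 685.5 CPM in F3 and 1126 and 969.3 CPM in G7, against 855.9 and 598.1 CPM in wild type. The F3 and wild-type ranges overlapped and both G7 libraries lay above them. NEAT1 had 65.1 and 65.3 CPM in F3 and 92.5 and 111.3 CPM in G7, against 93.4 and 65.2 CPM in wild type. Wild type thus spanned the gap between the mutant lines. KCNQ1OT1 had 2.39 and 1.01 CPM in F3 and 1.84 and 2.39 CPM in G7, against 1.74 and 2.02 CPM in wild type, and all groups overlapped.

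Over both lines the log2 fold change in total RNA was 0.33 ± 0.20 for MALAT1, 0.08 ± 0.23 for NEAT1 and 0.02 ± 0.35 for KCNQ1OT1 (SE, 4 mutant and 2 wild-type libraries). In this comparison 4.56% of 13949 genes were called. For NEAT1 the direction differed by line: -0.29 ± 0.13 in F3 and 0.37 ± 0.15 in G7. Of 37 paraspeckle protein genes tested, 1 fell and none rose (HNRNPM, -0.53 ± 0.12, edgeR adjusted p = 0.0453). Of 35 nuclear speckle protein genes, 3 fell and none rose: EIF4A3 (-0.49 ± 0.10), ALYREF (-0.45 ± 0.10) and SRSF7 (-0.54 ± 0.12). At an unadjusted p under 0.05, 2 paraspeckle genes were higher and 11 lower, and 1 speckle gene was higher and 12 lower. DESeq2 called 1 paraspeckle gene higher and 2 lower, and 0 speckle genes higher and 5 lower. Mitochondrial messenger RNAs, which are made outside the nucleus, had 4 of 13 higher.

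RiboLace was next set against total RNA within each genotype, in 1 fit of 8 libraries. In mutant F3, MALAT1 was higher in both RiboLace libraries than in both total RNA libraries, with a log2 ratio of 2.46 ± 0.26. In wild type it was lower, with a log2 ratio of -0.43 ± 0.25. The gap there was narrow, with the nearest libraries at 550.4 CPM in RiboLace and 578.9 CPM in total RNA, scaled over these 8 libraries. NEAT1 was likewise higher in mutant F3 (0.73 ± 0.23) and lower in wild type (-1.22 ± 0.25). KCNQ1OT1 was higher in RiboLace in both genotypes, at 3.45 ± 0.48 in mutant F3 and 2.84 ± 0.43 in wild type. Protein-coding totals moved the median gene to 0.35 in mutant F3 and 0.26 in wild type, and MALAT1 to 2.86 in mutant F3 and -0.17 in wild type. The test called 49.2% of 15338 genes in mutant F3 and 48.3% in wild type.

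**Figure D4:**
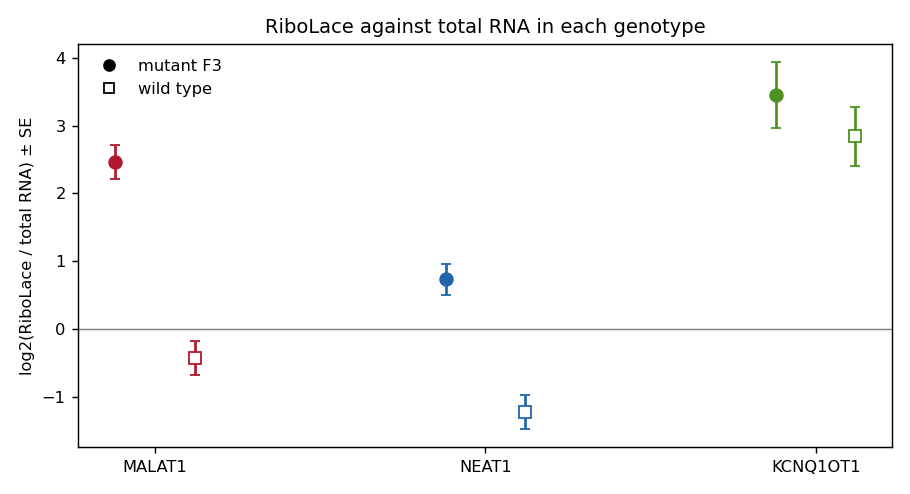
Log2 ratio of RiboLace to total RNA ± SE, with mutant F3 as filled circles and wild type as open squares. MALAT1 and NEAT1 lie above 0 in mutant F3 (2.46 and 0.73) and below 0 in wild type (-0.43 and -1.22), and KCNQ1OT1 lies above 0 in both.

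The difference of these ratios between mutant F3 and wild type was 2.89 ± 0.35 for MALAT1, 1.95 ± 0.34 for NEAT1 and 0.60 ± 0.59 for KCNQ1OT1 on the log2 scale. In this contrast 1.49% of genes were called, and 329 of 15338 had a larger value than MALAT1. SNHG14 (1.43 ± 0.29, edgeR adjusted p = 0.0174) and TUG1 (1.24 ± 0.26, adjusted p = 0.0215) were the 2 of 10 other nuclear noncoding RNAs called, both upward. Neither was called without wild-type total RNA replicate 1 or 2, mutant RiboLace replicate 2 or F3 control replicate 2. Of 35 nuclear speckle protein genes, 2 rose: the helicase gene DDX39B (1.55 ± 0.36, adjusted p = 0.0342) and the splicing factor gene SRSF2 (1.11 ± 0.26, adjusted p = 0.0352). No paraspeckle protein gene of 38 was called by edgeR in this contrast. At an unadjusted p under 0.05, 2 were higher and 2 lower, and DESeq2 called 3 higher and 1 lower.

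The ratio of MALAT1 to NEAT1 reads needs no scaling between libraries. It was 35.5 and 38.3 in mutant RiboLace, against 16.6 and 14.4 in wild-type RiboLace. In total RNA it was 17.4, 17.2, 17.9 and 14.6 with HHT, against 13.3, 10.5, 12.2 and 8.71 in control mutant libraries, and it was 9.16 and 9.17 in wild type. Mutant RiboLace libraries thus had the highest ratios, and the HHT libraries lay above the control libraries without overlap. Per kilobase of exon, MALAT1 averaged 103 ± 21.0 CPM, NEAT1 3.67 ± 0.99 CPM and KCNQ1OT1 0.021 ± 0.007 CPM in the 4 control mutant libraries (SD), an order that held in every group.

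With HHT, MALAT1 was slightly higher, NEAT1 lower and KCNQ1OT1 much lower relative to the typical gene. MALAT1 had 931.2 and 816.7 CPM in HHT-treated F3, against 864.9 and 685.5 CPM in control F3, and the ranges overlapped. In G7 it had 1796 and 1177 CPM with HHT, against 1126 and 969.3 CPM in controls, and both treated libraries lay above both controls. Between libraries of the same number in the labels, MALAT1 was higher with HHT in 4 of 4, NEAT1 lower in 3 of 4 and KCNQ1OT1 lower in 4 of 4. Pairing within a line is uncertain, because numbers in the sample descriptions match in 1 of the 4 pairs. Swapping libraries within a line changes the counts of MALAT1 and NEAT1, so these counts are not agreement between true pairs. The log2 fold change of MALAT1 over both lines was 0.27 ± 0.13 (SE, n = 4 each), and 0.11 without HHT replicate 3, a G7 library.

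NEAT1 had 53.5 and 47.4 CPM in HHT-treated F3, against 65.1 and 65.3 CPM in control F3, with no overlap. In G7 it had 100.4 and 80.8 CPM with HHT, against 92.5 and 111.3 CPM in controls, which overlapped. Its log2 fold change was -0.33 ± 0.09, and -0.10 with library totals as the only scaling, under which the median gene was at 0.23. KCNQ1OT1 had 8 reads in each HHT-treated F3 library, against 46 and 20 in control F3, and 38 and 13 reads with HHT, against 35 and 46 in controls, in G7. Both F3 values and the lower G7 value lay below every control, while the other G7 library did not. Its log2 fold change was -1.49 ± 0.39, and -2.17 without HHT replicate 3, the G7 library with 38 reads.

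HHT changed most of the transcriptome, with 79.2% of 13621 genes called by edgeR, so counts of called genes say little on their own. Other long noncoding genes had a median log2 fold change of -0.31, with 288 of 1078 up and 456 down, close to the value of NEAT1. Nuclear protein-coding genes had a median of 0.05. All 13 mitochondrial messenger RNAs fell (median -0.95), as did 10 of 12 myeloid markers, while 2 rose. Their part in the values of the 3 RNAs was not tested. Of 37 paraspeckle protein genes, 22 rose and 10 fell, with a median log2 fold change of 0.38. PSPC1, a core paraspeckle protein, had 151.8, 175.8, 127 and 139 CPM with HHT, against 43.1, 47.9, 48.2 and 50.7 CPM in controls (1.57 ± 0.09, adjusted p = 9.47e-10). ZNF24 (1.59 ± 0.07) and CCNT1 (1.4 ± 0.07), a cyclin of transcription elongation, had the smallest adjusted p-values beside it. Of 35 nuclear speckle protein genes, 20 rose and 5 fell (median 0.36), led by the scaffold gene SON (1.57 ± 0.06), SRSF10 (1.31 ± 0.06) and BCLAF1 (1.12 ± 0.06). Among 22 genes for MALAT1 end processing and m6A, 9 rose and 5 fell; ALKBH5, an m6A eraser, fell (-1.68 ± 0.08), and TRNT1, which adds CCA to tRNA ends, and METTL14, an m6A writer subunit, rose (1.32 ± 0.07 and 1.41 ± 0.08). Library totals alone gave 27, 28 and 14 risers in these lists.

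**Figure D5:**
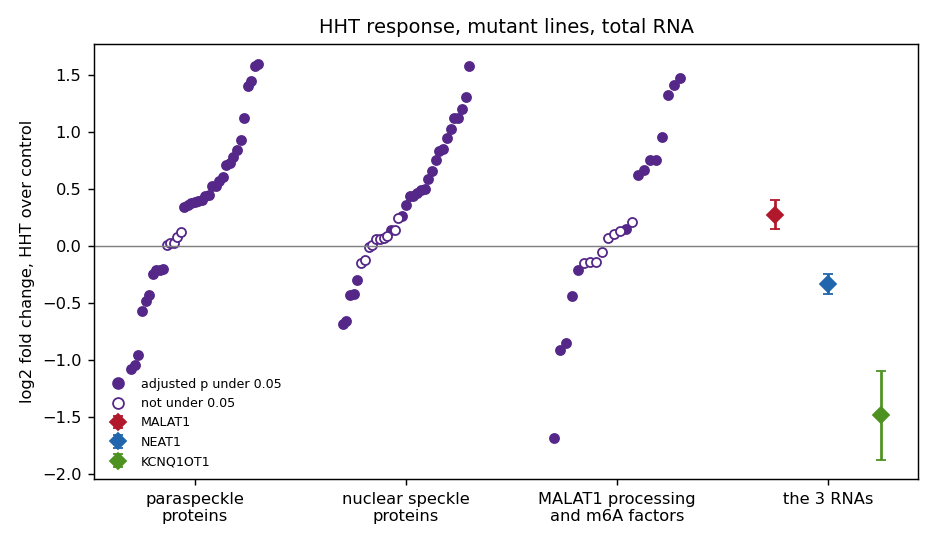
Log2 fold change of HHT over control in total RNA of both mutant lines. Circles are genes of 3 lists ordered by value, filled where the edgeR adjusted p was under 0.05, and diamonds are the 3 RNAs ± SE. Most filled circles lie above 0, MALAT1 is at 0.27, NEAT1 at -0.33 and KCNQ1OT1 at -1.49.

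Other nuclear noncoding RNAs went both ways with HHT, 5 of 8 up and 2 down. SNHG14 fell (-2.37 ± 0.12, edgeR adjusted p = 2.9e-10), FIRRE fell (-1.77 ± 0.25) and PVT1 rose (0.64 ± 0.08). Around NEAT1 and MALAT1, 6 of 13 listed genes rose and 4 fell, with DPF2 at 0.95 ± 0.06 and POLA2 at 1.00 ± 0.08. Of the genes listed at 11p15, 2 of 8 rose and 5 fell, among them OSBPL5 (-2.0 ± 0.09) and CD81 (-1.37 ± 0.07) downward and TSSC4 (1.15 ± 0.07) upward.

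Between the untreated lines, NEAT1 was higher in G7 than in F3 by 0.65 ± 0.11 on the log2 scale (edgeR adjusted p = 0.000607, higher in 2 of 2 libraries). It stayed past the threshold without any 1 of the 8 libraries, with adjusted p between 9.62e-05 and 0.0278. MALAT1 was at 0.44 ± 0.15 and did not pass (adjusted p = 0.0569), and passed when F3 or G7 HHT libraries or G7 control replicate 4 were left out singly, with adjusted p of 0.0118 to 0.498 over all 8. KCNQ1OT1 was at 0.33 ± 0.42 (adjusted p = 0.651), and at -0.21 without F3 control replicate 2. In this comparison 18.9% of 14435 genes were called.

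The same contrast within HHT-treated libraries, added after the data were seen, gave 0.78 ± 0.15 for MALAT1 (edgeR adjusted p = 0.00192), 0.86 ± 0.11 for NEAT1 (adjusted p = 5.06e-05) and 1.66 ± 0.59 for KCNQ1OT1 (adjusted p = 0.056), with 20.9% of genes called. Without HHT replicate 3, the G7 library with the most MALAT1, these values were 0.43 (adjusted p = 0.0507), 0.68 (adjusted p = 0.00109) and 0.64 (adjusted p = 0.621), so that NEAT1 alone still passed. KCNQ1OT1 passed without HHT replicate 4 (2.27, adjusted p = 0.00883) and without control replicate 3 (adjusted p = 0.0399) or 4 (adjusted p = 0.0414). The response to HHT itself did not pass the test of a difference between lines for any of the 3. The difference, G7 minus F3, was 0.34 ± 0.22 for MALAT1 (adjusted p = 0.467), 0.21 ± 0.16 for NEAT1 (adjusted p = 0.562) and 1.34 ± 0.73 for KCNQ1OT1 (adjusted p = 0.371). In that test 3.8% of genes were called. The MALAT1 value was -0.0085 without HHT replicate 3, a G7 library.

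Between the untreated lines, where 18.9% of all genes were called, 13 of 35 nuclear speckle protein genes rose in G7 and 0 fell by edgeR (median 0.22; 19 up and 2 down at an unadjusted p under 0.05, 11 and 0 by DESeq2), led by SRSF1 (0.57 ± 0.08), SRPK1 (0.45 ± 0.07) and PNN (0.46 ± 0.08). The count was 6 without F3 control replicate 1 or 2. Mitochondrial messenger RNAs had 10 of 13 up in the same contrast (median 0.43), and their part in these values was not tested. Paraspeckle protein genes had 9 of 37 up and 3 down, with TAF15 (0.52 ± 0.08) and HNRNPH3 (0.51 ± 0.09) up and RBM3 (-0.39 ± 0.07) down. The number up was 2 without F3 control replicate 1 and 5 without replicate 2. Long noncoding RNAs listed as cytoplasmic had 1 of 19 up and 8 down, led by SNHG7 (-0.61 ± 0.08). Of the 13 listed genes around NEAT1 and MALAT1, 1 was called, MAP3K11 (-0.38 ± 0.09, edgeR adjusted p = 0.00711), against the direction of NEAT1. With size factors of the RLE method 4 were called, all lower in G7, and without F3 control replicate 2 there were 0. TUG1 was the 1 other nuclear noncoding RNA of 9 called (0.44 ± 0.10, adjusted p = 0.00514).

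Across the 10 total RNA libraries, the gene whose centred log2 level ran closest to MALAT1 was DNHD1, with a root mean square difference of 0.14 among 10149 genes of at least 5 CPM. PABPC1L (0.14), the mRNA export helicase gene DDX39B (0.17), LPAR2 (0.18) and CLECL1 (0.18) followed. Closest to NEAT1 were HCG11 (0.17), ANKRD36 (0.17), FAHD2B (0.19), ARSK (0.20) and TRAPPC6A (0.20). KCNQ1OT1, with few reads, had looser neighbours, among them CELSR2 (0.39), URB1 (0.40), DYSF (0.42) and TTC3 (0.42). In RiboLace, DDX39B had 56.9 and 106 CPM in the mutant, against 23.1 and 34.1 CPM in wild type. All were below its 147.1 to 336.1 CPM in total RNA, which was scaled separately.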

How the data were processed

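The deposited table holds raw read counts per gene that the authors made for 14 libraries. The submitters' processing notes name GRCh38, the aligner STAR (2.6.0b) and DESeq2. No source used here names the counter, its strand setting or the annotation. Of 58037 Ensembl IDs, 57433 matched GENCODE 29 without regard to version and 604 did not.

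Counts were tested with edgeR 4.0.16 (R 4.3.3), after filterByExpr and TMM scaling. The test was edgeR's quasi-likelihood one, p-values were adjusted by Benjamini-Hochberg over all genes tested, and 0.05 was the threshold. SE is the log2 fold change divided by the root of F. HHT was fitted with line as a covariate. RiboLace and total RNA were fitted together over wild type and F3 as 4 cell means, and the lines over 8 libraries. The settings were also run on counts simulated from edgeR's own fits, which cannot show whether the model holds for these data. Alternatives were RLE factors, library totals, no filter, DESeq2 1.42.0, each library left out, a replicate block, each line alone and totals of protein-coding nuclear genes.

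Members and lists were chosen with earlier results of these data known. All 3 members are given in every library. From a described list, up to 3 genes with the smallest adjusted p among those called are named, or the 3 with the highest CPM where none passed; neighbouring genes may be given by value. Some genes these rules would name are not reported here. DDX39B, TUG1, SNHG14 and PVT1 were followed further after their values were seen.

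HHT and control libraries of the same title number come from the same line, and the block rests on that. Their deviations from group means, which include the line difference, correlated at 0.507, 0.644, 0.563 and 0.628, and those from line means at 0.254 in F3 and 0.471 in G7. The numbers in the sample descriptions match in 1 of the 4 pairs, so pairing beyond line is uncertain. Replicates differed by more than counting noise in all 7 groups of line and treatment (chi-square per degree of freedom 2.95 to 11.3). Intervals cover counting error only.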

Additional observations from a re-analysis of the deposited data

Results flagged for a closer look

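KCNQ1OT1 in the 4 HHT-treated libraries was flagged because 1 library stood far from the rest. G7 replicate 3 had 1.70 CPM (38 reads), against 0.35, 0.35 and 0.55 CPM in the others (8, 8 and 13 reads). The gap was 0.852 of the range, and chance flags about 1 in 20 groups of 4 values from 1 normal distribution. CPM from so few reads need not be normal, and this group holds 2 lines, so that rate may not apply. Of 6 such groups examined, this was the 1 flagged.

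MALAT1 and NEAT1 were flagged because RiboLace lay above total RNA in every mutant F3 library and below it in every wild-type library. For MALAT1 in wild type the gap was narrow. RiboLace had 415.2 and 550.4 CPM and total RNA 823.9 and 578.9 CPM, scaled over the 8 libraries of that fit. How many other genes meet the same rule was not counted. The log2 difference of the ratios was 2.89 for MALAT1 and 1.95 for NEAT1; it was not tested, since these values chose the genes.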

How the results depend on the processing

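Each library in turn, the scalings and the other settings kept the direction of MALAT1 and NEAT1 in RiboLace, both between genotypes and against total RNA. In total RNA, NEAT1 was at -0.29 in F3 alone and 0.37 in G7 alone, and KCNQ1OT1 with HHT was at -2.34 in F3 alone. With library totals alone NEAT1 with HHT was at -0.10. MALAT1 between untreated lines passed the threshold without the filter (0.43, edgeR adjusted p = 2.45e-07), as did KCNQ1OT1 between HHT-treated lines (1.65, edgeR adjusted p = 0.000587). Counts of called genes moved most. In total RNA, mutant against wild type, they were 1655 without the filter, 1086 with DESeq2, 3080 for F3 and 2059 for G7. In RiboLace DESeq2 called 357 genes. For the ratio, library totals gave 151, no filter 527 and DESeq2 1028, and for the HHT response by line no filter gave 823. The causes of these shifts were not tested.

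With 1 library left out at a time, the counts ran from 43 to 649 in total RNA by genotype, 247 to 1811 in RiboLace by genotype, 4679 to 7885 for RiboLace against total RNA in F3, 24 to 1497 for the ratio, 1548 to 3189 between untreated lines, 1438 to 4022 between HHT-treated lines and 178 to 1089 for the response by line. On the log2 scale MALAT1 ran from 0.095 to 0.60 in total RNA, 2.53 to 3.43 in RiboLace, 1.97 to 2.83 against total RNA in F3, 2.41 to 3.27 for the ratio, 0.25 to 0.58 between untreated lines, 0.43 to 1.05 between HHT-treated lines and -0.0085 to 0.61 for the response by line. NEAT1 ran from -0.16 to 0.35 in total RNA, 0.39 to 1.14 against total RNA in F3 and 1.62 to 2.37 for the ratio. KCNQ1OT1 ran from -2.17 to -1.17 with HHT, 0.25 to 0.59 in RiboLace, 3.04 to 4.26 against total RNA in F3, 0.13 to 1.36 for the ratio, -0.21 to 1.04 between untreated lines and 0.64 to 2.27 between HHT-treated lines.

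The replicate block gave 10841 called genes with HHT (79.2% called without it), and 1645 in RiboLace by genotype, where 2 pairs share only a number. It left MALAT1 at 3.00 and NEAT1 at 1.74 in RiboLace. The 3 genes were not tested in these comparisons. No block could be fitted between lines, because line and title number go together.

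KCNQ1OT1 in RiboLace rests on 7 to 22 reads a library, and depth limits any statement on its difference.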

Other observations

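Among the genes listed at 11p15, IGF2, a growth factor gene, had 53.6 and 41.2 CPM in mutant RiboLace. In wild-type RiboLace it had 52.3 and 75.6 CPM, and it had no read in any of the 10 total RNA libraries. Whether KCNQ1OT1 acts on IGF2 was not tested. COL1A1, a collagen gene among the adherent-cell markers, had 14.0 and 21.6 CPM in mutant RiboLace and 6.19 and 10.1 CPM in wild-type RiboLace, against at most 0.32 CPM in total RNA. Reads that other loci could share with these genes were not examined.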
